A study of Homo sapiens with 3 samples.

Results

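The anaphase promoting complex (APC/C) genes described here are 10 genes: the coactivators CDC20 and FZR1, the ubiquitin-conjugating enzymes UBE2C and UBE2S, the inhibitor FBXO5, the securin PTTG1, the separase ESPL1 and the core subunits ANAPC1, ANAPC5 and CDC27. They were chosen by name, with earlier results of these data known, and 25 of the 54613 probe sets on the array were annotated to them. Of these, 22 named 1 gene and 3 named ANAPC1 together with its pseudogenes, so 9 of the 10 genes entered the comparison of 12307 genes. All 9 passed the filter, a mean signal of 42.0 or more. No probe set of the 10 genes reached the floor of 11.7, the 25th percentile of all signals, on any array, the lowest signal being 29.6.

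RNA came from IMR-90 cells, human fetal lung fibroblasts, 24 h after RNAiMAX transfection in medium with 10% serum. One culture received the siRNA labelled SETD8-1 (here SETD8 siRNA 1), another the siRNA labelled SETD8-2 (SETD8 siRNA 2), and the control culture the siRNA labelled GL3. SETD8, now named KMT5A, encodes the enzyme that places a single methyl group on lysine 20 of histone H4. With 1 array per siRNA there was no replicate error, so no p-value is given, and both SETD8 comparisons rest on the same control array.

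The APC/C is a ubiquitin ligase that marks mitotic proteins for destruction by the proteasome. CDC20 activates it at the metaphase-to-anaphase transition, and FZR1, also called CDH1, takes over from late mitosis through G1. UBE2C starts ubiquitin chains on its substrates and UBE2S extends them, whereas FBXO5, also called EMI1, holds the ligase inactive from S phase into G2. Destruction of securin, the product of PTTG1, by the APC/C frees separase to cut the cohesin that joins sister chromatids. The genes for several of these regulators are transcribed mainly in G2 and mitosis in cycling cells.

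Median signal was 45.3 with SETD8 siRNA 1, 44.9 with SETD8 siRNA 2 and 46.2 with the control siRNA. KMT5A kept 45.9% to 74.7% of its control signal with SETD8 siRNA 1 and 62.2% to 86.3% with SETD8 siRNA 2 over its 4 probe sets, a direction that matches the labels. Only its brightest probe set, and only with SETD8 siRNA 1, was more than 2-fold lower. All 6 fibroblast markers passed the filter, with summed signals of 121041, 111481 and 114879 (SETD8 siRNA 1, SETD8 siRNA 2, control siRNA). The 5 epithelial markers summed to 3164.7, 6481.0 and 3324.2 in the same order, most of it from KRT18, and the 4 endothelial markers to 295.5, 142.1 and 117.1. No leukocyte marker passed the filter. The proliferation marker MKI67 kept 11.9% to 21.1% of control with SETD8 siRNA 1 and 13.6% to 23.8% with SETD8 siRNA 2 over its 4 probe sets. In RNA from whole cultures, fewer cells in G2 and mitosis and less RNA per cell cannot be told apart, and the part of the proliferation state in the values below was not tested.

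Promoter sequence is shown for the genes whose signals moved together or stood apart, because control in G2 and mitosis is known to run through promoter elements of a few letters. Windows of 250 bases before to 50 bases after an annotated start were available in RefSeq (GRCh38.p14) for 9 of the 10 genes, the gene without one being UBE2C, in 12 windows. Shown, 5′ to 3′ along the gene, are CDC20 (chr1:43358731-43359030, plus strand), the FBXO5 window at its downstream start (chr6:152982992-152983291, minus strand), the first PTTG1 window (chr5:160421605-160421904, plus strand), ESPL1 (chr12:53268049-53268348, plus strand) and the first FZR1 window (chr19:3506061-3506360, plus strand). Capitals mark matches, on either strand, to the cell cycle genes homology region or CHR (TTTGAA), to the CCAAT box that NF-Y binds, and to an E2F core (TTCCCGC or TTGGCGC or TTCGCGC or TTGCCGC). Boxes of the NF-Y kind on opposite strands overlap where the capitals run on, as in PTTG1 and FBXO5.
CDC20: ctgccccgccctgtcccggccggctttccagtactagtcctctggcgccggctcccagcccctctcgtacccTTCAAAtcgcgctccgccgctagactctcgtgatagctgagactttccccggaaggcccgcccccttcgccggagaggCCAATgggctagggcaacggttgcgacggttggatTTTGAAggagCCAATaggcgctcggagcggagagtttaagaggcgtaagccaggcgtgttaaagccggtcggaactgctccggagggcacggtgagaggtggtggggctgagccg
FBXO5: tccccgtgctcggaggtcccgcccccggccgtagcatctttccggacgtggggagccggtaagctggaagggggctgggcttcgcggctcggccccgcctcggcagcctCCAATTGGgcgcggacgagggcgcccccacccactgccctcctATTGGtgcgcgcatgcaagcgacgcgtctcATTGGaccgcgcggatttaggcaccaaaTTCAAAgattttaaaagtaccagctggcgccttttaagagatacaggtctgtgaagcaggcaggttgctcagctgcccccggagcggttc
PTTG1: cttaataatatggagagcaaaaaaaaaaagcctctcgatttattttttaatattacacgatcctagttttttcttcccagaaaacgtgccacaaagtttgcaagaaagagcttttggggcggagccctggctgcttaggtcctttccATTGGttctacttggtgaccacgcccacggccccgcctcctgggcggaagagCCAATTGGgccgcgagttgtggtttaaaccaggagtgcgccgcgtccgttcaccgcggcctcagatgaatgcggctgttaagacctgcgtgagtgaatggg
ESPL1: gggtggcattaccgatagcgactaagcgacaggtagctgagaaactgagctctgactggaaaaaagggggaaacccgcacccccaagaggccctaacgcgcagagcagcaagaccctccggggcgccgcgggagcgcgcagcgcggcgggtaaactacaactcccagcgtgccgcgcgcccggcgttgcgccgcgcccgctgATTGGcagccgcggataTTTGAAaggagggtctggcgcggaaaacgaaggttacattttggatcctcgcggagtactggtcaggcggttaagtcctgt
FZR1: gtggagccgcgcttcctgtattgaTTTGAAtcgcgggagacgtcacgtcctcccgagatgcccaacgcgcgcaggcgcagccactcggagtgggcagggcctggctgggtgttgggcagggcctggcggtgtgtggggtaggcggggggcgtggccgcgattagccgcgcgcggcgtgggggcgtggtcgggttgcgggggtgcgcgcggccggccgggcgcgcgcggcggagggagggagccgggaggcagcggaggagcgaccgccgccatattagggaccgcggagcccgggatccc

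A CHR match stood 65 bases before the start in CDC20 between CCAAT boxes at 100 and 55 bases before it, and a further CHR match lay 178 bases before the start. In FBXO5 the CHR match, on the opposite strand, stood 40 bases before the start, downstream of 4 CCAAT matches. ESPL1 had its CHR match 31 bases and its CCAAT match 48 bases before the start. PTTG1 had 3 CCAAT matches and no CHR match in either window, and FZR1 had a CHR match 226 bases before the start and no CCAAT match there. CHR letters were found for 5 of the 9 genes, the other being ANAPC1, where they lay 38 bases after the start, and CHR and CCAAT letters occurred in the same window for 3, CDC20, FBXO5 and ESPL1. By window, 5 of the 12 held a CHR match, 8 a CCAAT match and 2 an E2F core. The 2 PTTG1 windows overlap and hold the same 3 CCAAT matches, and the other FBXO5 window held no match of any kind. Over 34943 promoter windows of the same length, 15.2% held a CHR match, 34.6% a CCAAT match, 12.9% an E2F core and 5.92% both CHR and CCAAT. E2F cores were found only in the second FZR1 window and in CDC27. Such matches are letters in a window and not evidence of binding.

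**Figure D1:**
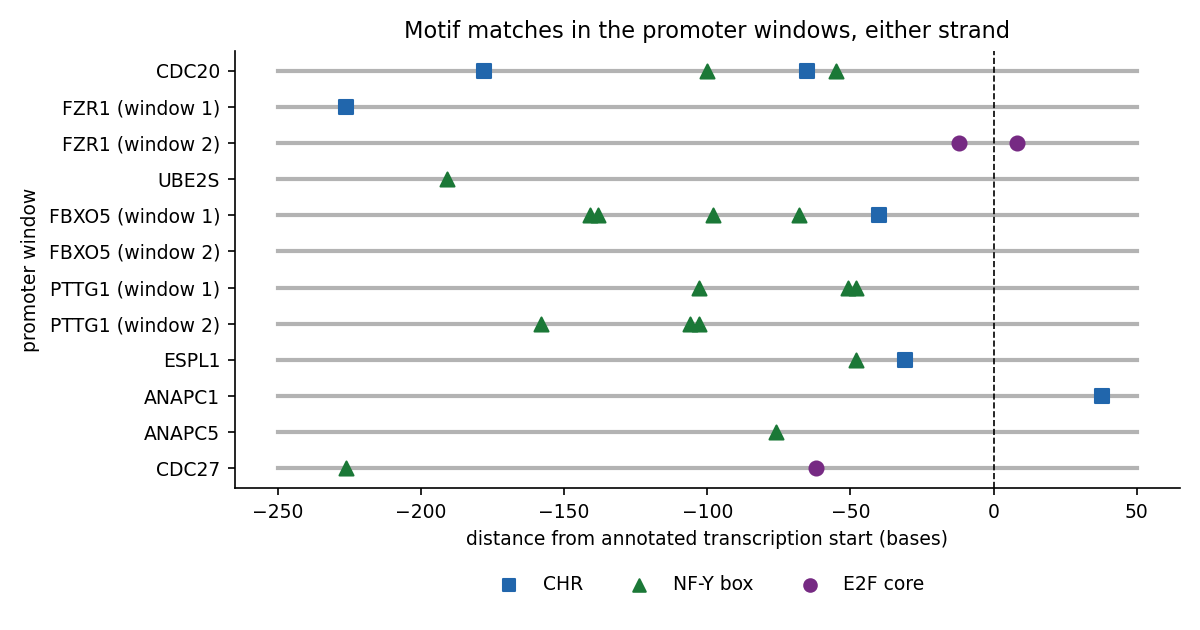
Positions of CHR (squares), NF-Y box (triangles) and E2F core (circles) matches on either strand, in bases from the annotated transcription start (dashed line), for the 12 promoter windows of 9 genes. CHR matches of CDC20, FBXO5 and ESPL1 lie 65, 40 and 31 bases before the start beside NF-Y boxes.

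A gene was counted as lower, or as higher, when its signal on both SETD8 arrays lay 2-fold or more from the control in that direction. Of the 9 genes compared, 4 were counted as lower and 0 as higher. The lower genes were CDC20, UBE2C, FBXO5 and PTTG1. Among all 12307 genes compared, 3.23% were counted as lower and 1.5% as higher. The median log2 fold change over the control was -1.25 with SETD8 siRNA 1 and -1.21 with SETD8 siRNA 2 for the 9 genes, against -0.02 and -0.01 over all genes. Because the genes were chosen with earlier results of these data known, the contrast with all genes is no independent test. CDC20, UBE2S, FBXO5 and PTTG1 rest only on probe sets whose suffix marks possible binding to further transcripts; without such probe sets 1 of 5 genes, UBE2C, was counted as lower and the medians were -0.24 and -0.08. In place of a replicate error, single genes were set against how far the SETD8 arrays differed from each other: among genes of the same signal quartile, the 95th percentile of that log2 difference, regardless of sign, was 1.72 for CDC20, FZR1 and ESPL1, 1.25 for UBE2C and FBXO5, and 1.14 for PTTG1, UBE2S, ANAPC5 and CDC27. The 4 genes exceeded this yardstick with both siRNAs. It does not include the control array, so an error there would shift both comparisons alike and go unseen. KMT5A, on its brightest probe set, stayed within its own yardstick of 1.72 (-1.12 with SETD8 siRNA 1 and -0.68 with SETD8 siRNA 2). Where a pair of values follows without labels, SETD8 siRNA 1 comes before SETD8 siRNA 2.

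**Figure D2:**
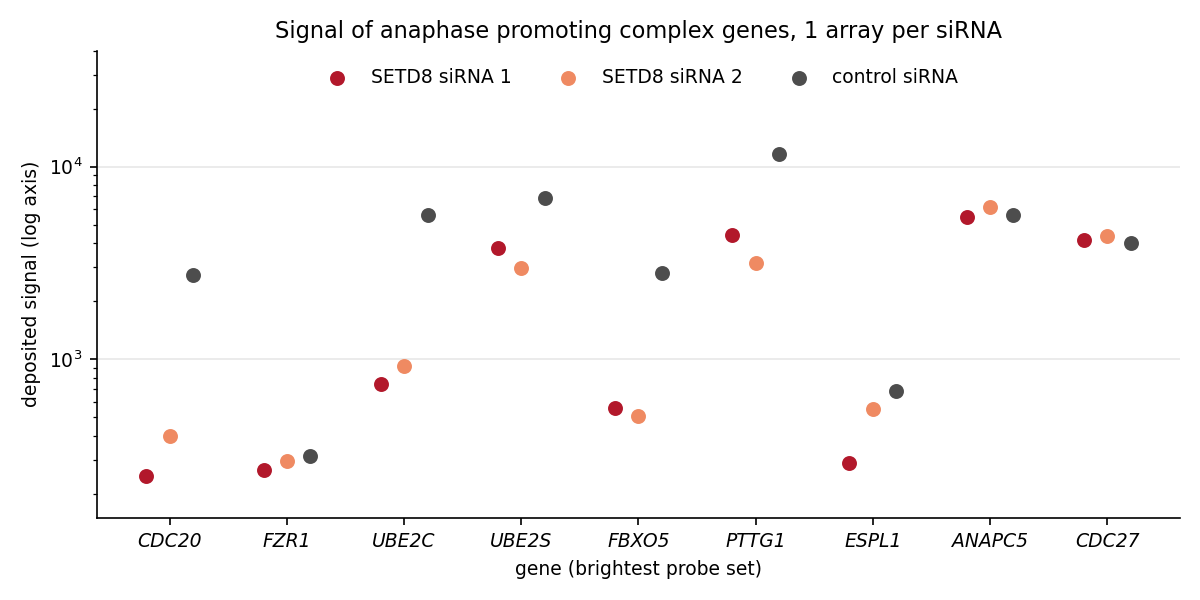
Deposited signal (log axis) of the brightest probe set of 9 genes, 1 point per array, with SETD8 siRNA 1, SETD8 siRNA 2 and control siRNA from left to right. The control point stands far above both others in CDC20, UBE2C, FBXO5 and PTTG1, and the 3 points lie close together in FZR1, ANAPC5 and CDC27; heights of different genes cannot be compared.

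The coactivators differed from each other. CDC20 had a signal of 246.1 with SETD8 siRNA 1 and 401.4 with SETD8 siRNA 2, against 2738.9 with the control siRNA. Both SETD8 arrays were thus low, at 8.99% and 14.7% of control, with log2 fold changes of -3.48 and -2.77. Only 0.13% of all genes compared had a mean change over the siRNAs as low as that of CDC20, itself included. FZR1, on its brightest probe set, had signals of 265.0 (SETD8 siRNA 1) and 295.9 (SETD8 siRNA 2), against 313.5 (control siRNA). Its log2 fold changes were -0.24 and -0.08, the second being 0.01 after quantile normalization. Its arrays lay close together, and 36.2% of genes had a mean change at or below its own.

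FZR1 was represented by 4 probe sets, which did not give the same picture. The second had signals of 120.7 (SETD8 siRNA 1) and 202.4 (SETD8 siRNA 2), against 150.8 (control siRNA), so that the control lay between the others. On a dimmer probe set the signals were 52.9 and 55.9, against 117.9 with the control siRNA, which is 44.9% and 47.4% of control. The dimmest had 47.0 and 52.4, against 74.6 with the control siRNA. The dimmest pair, whose SETD8 signals lay just above the filter value of 42.0, was lower with both siRNAs, and the brighter pair was under 1.5-fold apart from control with either.

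The ubiquitin-conjugating enzymes were both lower, UBE2C more than UBE2S. UBE2C, which primes substrates with the first ubiquitins, had signals of 740.2 (SETD8 siRNA 1) and 917.3 (SETD8 siRNA 2), against 5631.3 (control siRNA). That is 7.61-fold and 6.14-fold lower, and 0.447% of all genes had a mean change as low. UBE2S, which elongates chains, had signals of 3787.7 (SETD8 siRNA 1) and 2979.5 (SETD8 siRNA 2), against 6905.8 (control siRNA). Both SETD8 signals were below the control, but at 54.8% and 43.1% of it UBE2S passed 2-fold, and its yardstick of 1.14, with SETD8 siRNA 2 only; the difference between the siRNAs, -0.35 on the log2 scale (SETD8 siRNA 2 minus SETD8 siRNA 1), was within that yardstick. Taken alone, SETD8 siRNA 1 had 7.75% of all genes 2-fold or more below the control, and SETD8 siRNA 2 had 6.65%.

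FBXO5, the inhibitor that occupies the substrate site of the APC/C, had a signal of 557.5 with SETD8 siRNA 1 and 504.3 with SETD8 siRNA 2, against 2818.5 with the control siRNA. Its second probe set had 183.2 and 222.0, against 1064.5 with the control siRNA. The SETD8 arrays were low and close to each other on both. The log2 fold changes were -2.34 and -2.48 on the brighter probe set and -2.54 and -2.26 on the other, so which siRNA gave the lower value depended on the probe set.

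PTTG1 encodes securin, the chaperone and inhibitor of separase. Its only probe set had signals of 4406.0 (SETD8 siRNA 1) and 3170.3 (SETD8 siRNA 2), against 11698.7 (control siRNA). Both SETD8 arrays stood apart from the control, at 37.7% and 27.1% of it (log2 fold changes of -1.41 and -1.88), and 2.12% of all genes had a mean change as low. The suffix of this probe set, _x_at, marks probes that may bind related transcripts. The probe set of the pseudogene PTTG3P had 249.0 and 205.2, against 1127.0 with the control siRNA, and that of the paralogue PTTG2 had 22.1 and 5.5, against 22.9, close to or under the floor of 11.7. The share of either in the PTTG1 signal was not tested.

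ESPL1, the protease that cleaves cohesin, was the gene whose brightest probe set differed most between the SETD8 siRNAs. This probe set had signals of 287.5 (SETD8 siRNA 1) and 550.3 (SETD8 siRNA 2), against 686.0 (control siRNA), and the other had 221.6 and 464.0, against 514.0. On both probe sets SETD8 siRNA 1 was low and SETD8 siRNA 2 lay near the control, at 41.9% and 80.2% of it on the first and 43.1% and 90.3% on the second. The difference, SETD8 siRNA 2 minus SETD8 siRNA 1, was 0.94 on the log2 scale on the first probe set and 1.07 on the second, within the yardstick of 1.72 for genes of its signal. The changes over control with SETD8 siRNA 1, -1.25 on the first probe set and -1.21 on the second, also lay within it. Between the SETD8 arrays, 6.18% of all genes were at least 2-fold higher with SETD8 siRNA 2. The pair of probe sets read the same RNA and are not replicates of the treatment.

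**Figure D3:**
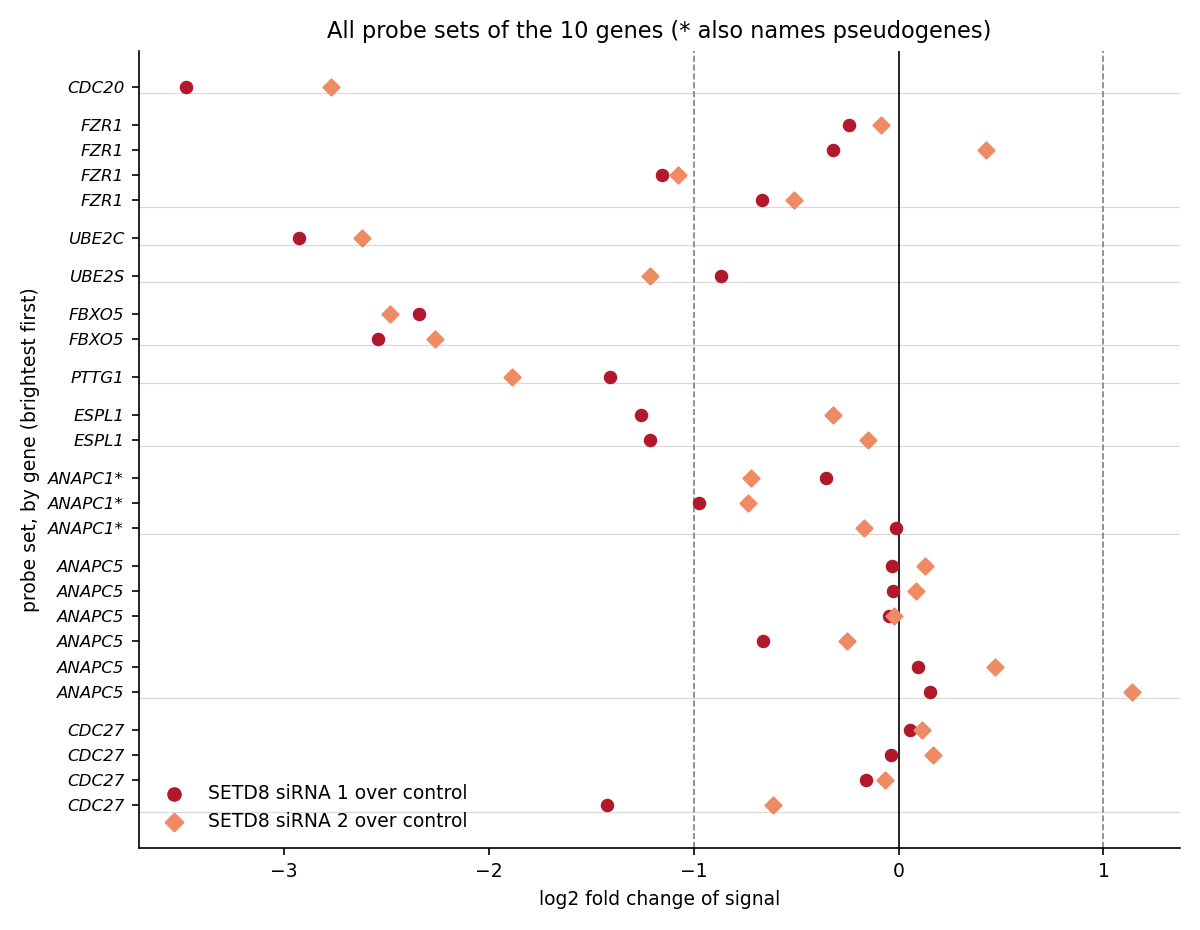
Log2 fold change over control siRNA of the 25 probe sets of the 10 genes, SETD8 siRNA 1 as circles and SETD8 siRNA 2 as diamonds, brightest probe set first within a gene; dashed lines mark 2-fold and asterisks mark probe sets that also name pseudogenes. Only 6 probe sets lie beyond 2-fold lower with both siRNAs, those of CDC20, UBE2C, FBXO5 (both) and PTTG1 and 1 dim probe set of FZR1.

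Core subunits had small differences from the control on their brightest probe sets. ANAPC5, a scaffold subunit, had signals of 5501.9 (SETD8 siRNA 1) and 6147.8 (SETD8 siRNA 2), against 5627.8 (control siRNA). CDC27, a subunit that binds the coactivators, had 4168.6 and 4342.5, against 4013.5. The largest of these log2 fold changes was 0.13, for ANAPC5 with SETD8 siRNA 2, far inside the yardstick of 1.14. Their next brightest probe sets gave 98.3% and 106% of control for ANAPC5 and 97.6% and 113% for CDC27. With all probe sets of a gene averaged, the log2 fold changes of CDC27 turned from above to below 0, at -0.39 and -0.10.

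Dimmer probe sets of the same subunits scattered more. One of CDC27 had signals of 241.1 (SETD8 siRNA 1) and 421.8 (SETD8 siRNA 2), against 645.3 (control siRNA), which is 37.4% and 65.4% of control. The remaining probe set of CDC27 stood at 89.6% and 95.6%. For ANAPC5, a probe set of middle signal stood at 97.0% and 98.6%, another at 63.2% and 84.1% and another dim one at 107% and 139%, with no shared direction. The dimmest of the 6 for ANAPC5 had 32.9 and 65.3, against 29.6, so that only the SETD8 siRNA 2 signal lay above the filter value, and gave the only log2 fold change above 1 of any member probe set (1.14 with SETD8 siRNA 2). The 3 probe sets that name ANAPC1, the largest subunit, also name ANAPC1P4 and in 1 case ANAPC1P2, so their signal is assigned to no gene. They had 593.8, 321.5 and 463.0 with SETD8 siRNA 1 and 460.4, 378.8 and 415.6 with SETD8 siRNA 2, against 758.5, 630.6 and 467.2 with the control siRNA in the same order. All were lower with both SETD8 siRNAs, by log2 fold changes between -0.97 and -0.01, and none reached 2-fold.

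The remaining 11 core subunits included none counted as lower or as higher, against 3.23% and 1.5% of all genes. Their log2 fold changes ranged over -0.83 to 0.32 (SETD8 siRNA 1) and -0.56 to 0.38 (SETD8 siRNA 2), with medians of -0.29 and 0.02. The lowest was CDC23, which had signals of 987.7 (SETD8 siRNA 1) and 1186.3 (SETD8 siRNA 2), against 1754.2 (control siRNA). ANAPC7 had -0.49 and -0.26, ANAPC11, the RING subunit that binds the ubiquitin-conjugating enzymes, -0.22 and -0.06, and ANAPC2, the cullin subunit, 0.06 with either. Signal was higher with SETD8 siRNA 2 than with SETD8 siRNA 1 for 9 of the 11, whose median difference was 0.26 on the log2 scale, against 0.00 over all genes, where 49.8% were higher with SETD8 siRNA 2. The 11 differences ran from -0.49 to 0.84, each within the yardstick of 1.14 or more.

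Of 30 genes whose proteins are degraded through the APC/C, 28 were counted as lower and 0 as higher. Over all genes 3.23% and 1.5% were, and the median log2 fold changes of the 30 were -2.51 and -2.39. The lowest by the smaller of both changes were DLGAP5, a spindle protein (-3.27 and -3.47), the centrosomal kinase NEK2 (-3.21 and -3.30), the checkpoint kinase BUB1 (-3.11 and -3.07) and NUSAP1, a spindle microtubule protein whose signals were 702.2 and 655.4, against 5233.3 with the control siRNA. The exceptions were SKP2, an F-box protein of the SCF ligase (-1.17 and -0.78), and the phosphatase CDC25A (-1.42 and -0.81), both of which passed 2-fold with SETD8 siRNA 1 only. These are mRNA values and do not measure the proteins that the APC/C degrades. Among genes counted as lower, SGO1 with both siRNAs and PLK1 with SETD8 siRNA 2 (26.6) had signals under the filter value of 42.0. TK1 (-1.59 and -1.71) stayed within its yardstick of 1.72 with both siRNAs. KIF22 (-1.20) and KIF18A (-1.68) stayed within the same yardstick with SETD8 siRNA 2. PLK1 (-1.47) stayed within its yardstick of 2.21 with SETD8 siRNA 1. The other genes counted as lower exceeded theirs with both. The list holds mostly genes that peak in G2 and mitosis, and its direction was known from these arrays when it was drawn up.

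Of 6 genes that restrain the APC/C or release that restraint, 3 were counted as lower and 0 as higher. Over all genes, 3.23% were counted as lower and 1.5% as higher. BUB1B, which encodes the checkpoint protein BUBR1, had signals of 231.3 (SETD8 siRNA 1) and 296.8 (SETD8 siRNA 2), against 2879.6 (control siRNA). TRIP13, the ATPase that remodels MAD2, had -2.34 and -2.03 on the log2 scale, and MAD2L1, which encodes MAD2 itself, had -1.88 and -2.31. BUB3, a further member of the checkpoint complex, had 6418.9 and 8081.9, against 11843.0 with the control siRNA (-0.88 and -0.55). MAD2L1BP, or p31comet, which helps release the checkpoint, was above the control with both siRNAs but under 2-fold, at 2432.1 and 1644.7, against 1427.6, and MAD2L2 had -0.58 and -0.53. Median log2 fold changes of the 6 genes were -1.38 and -1.29.

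Genes of the cohesin ring, which separase cuts, stayed nearer the control. Of 9 genes of the ring and of its loading and release factors, 0 were counted as lower or as higher. Over all genes, 3.23% were counted as lower and 1.5% as higher. Lower with both at any size were 7 of the 9, where 33.9% of all genes were. SMC3 had signals of 1816.1 (SETD8 siRNA 1) and 2236.2 (SETD8 siRNA 2), against 4353.9 (control siRNA), just under 2-fold with SETD8 siRNA 2. SMC1A, its partner in the ring, had -1.05 and -0.74 on the log2 scale, STAG1 -0.74 and -0.36, and RAD21, the subunit that separase cleaves, -0.60 and -0.80. The cohesin protectors SGO1, or shugoshin, and CDCA5, or sororin, were placed among the substrates and not among these 9. Both were counted as lower, SGO1 with log2 fold changes of -2.45 and -2.99, and CDCA5 with signals of 224.5 (SETD8 siRNA 1) and 250.4 (SETD8 siRNA 2), against 899.6 (control siRNA). SGO1 was dim with the SETD8 siRNAs, at 34.2 and 23.5, against 186.5 with the control siRNA. Both SETD8 signals lay under the filter value of 42.0, so SGO1 passed only through the control array.

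Lists drawn for comparison had medians near 0, and over all genes 3.23% were counted as lower and 1.5% as higher. In the SCF ubiquitin ligase, the partner of the APC/C in cell cycle control, 1 of 9 genes was counted as lower and 0 as higher. This was CCNF, the F-box protein cyclin F, with 110.6 with SETD8 siRNA 1 and 101.7 with SETD8 siRNA 2, against 534.6 with the control siRNA. BTRC, the F-box protein that targets FBXO5 for destruction in early mitosis, had 0.45 and 0.47, CDC34 0.50 and 0.21, and FBXW7 -0.43 and -0.13. Among 16 other ubiquitin-conjugating enzymes UBE2T, the enzyme of the Fanconi anemia pathway, was the only gene counted as lower (-1.63 and -1.71), where UBE2Q1 had 0.45 and 0.60, UBE2B 0.15 and 0.22, and UBE2N -0.15 and -0.13. Medians were 0.05 and -0.04 for the SCF genes and 0.09 and 0.00 for these enzymes. SKP2, an F-box protein of the SCF ligase (-1.17 and -0.78), was placed among the substrates and not among these SCF genes.

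None of 27 proteasome subunits was counted as lower or as higher, against 3.23% and 1.5% of all genes. Their log2 fold changes lay between -0.31 and 0.49. PSMC3 had -0.27 and -0.29, PSMA1 -0.21 and -0.23, PSMC4 0.49 and 0.21, and PSMD4 0.19 and 0.18. Among 6 deubiquitinases and phosphatases tied to the APC/C, 1 gene was counted as lower and 0 as higher. It was USP44, a deubiquitinase that acts on CDC20 complexes in the checkpoint. Its signals were 582.2 with SETD8 siRNA 1 and 340.2 with SETD8 siRNA 2, against 1356.0 with the control siRNA. The log2 fold change was within its yardstick of 1.72 with SETD8 siRNA 1 (-1.22) and beyond it with SETD8 siRNA 2 (-1.99). USP37, a deubiquitinase of cyclin A, had -0.40 and -1.18, CDC14B -0.99 and -0.17, and PPP2R5C -0.51 and -0.09.

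**Figure D4:**
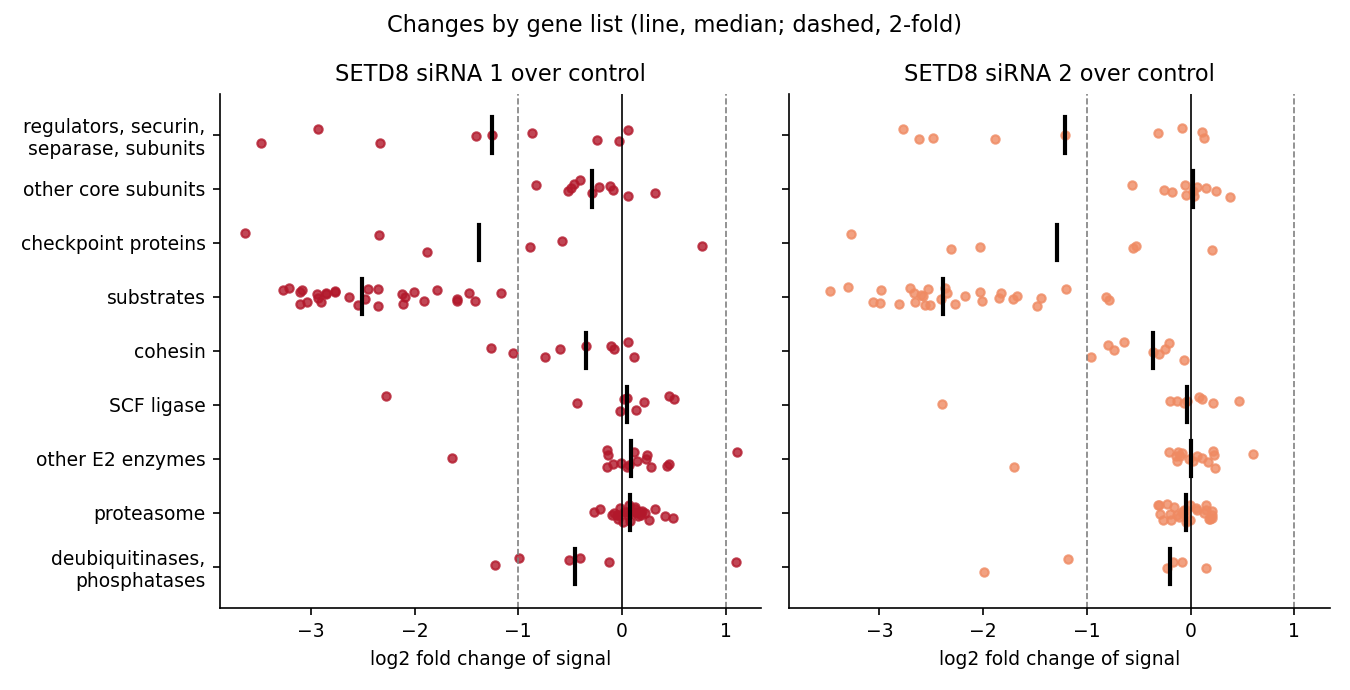
Log2 fold change over control siRNA of each gene in the 9 lists (points, jittered down the page) with SETD8 siRNA 1 on the left and SETD8 siRNA 2 on the right; black lines are list medians and dashed lines mark 2-fold. The 30 substrates have medians of -2.51 and -2.39, whereas the 11 other core subunits have -0.29 and 0.02 and no point beyond 2-fold.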

How the data were processed

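The deposited values are intensity values, a linear signal per probe set, which the authors made with MAS5 per the submitters' processing notes; version and settings: not given in the sources used here. The mean without the extreme 2% at either end was 497 on each of the 3 arrays, so no further scaling was applied. A shift of all genes would be hidden by such scaling. Detection calls were not used here.

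Probe sets were named from GEO's platform annotation, with symbols updated by gene number to RefSeq (41037 of 41091 matched); 1801 probe sets named several genes and 11721 were unlisted, and these were left out. Values under 11.7, the 25th percentile, were raised to it before log2. The brightest probe set stood for a gene, and genes were kept from a mean signal of 42.0 upward. Precision is limited by the number of arrays, and no test was run. A change was counted at 2-fold in the same direction with both SETD8 siRNAs. Python 3.11.15, numpy 2.4.6, pandas 2.3.3 and matplotlib 3.10.9 were used.

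Members and lists were chosen with earlier results of these data known. Named were the 10 genes, KMT5A, MKI67 and up to 4 genes per other list, those with the largest change shared by both siRNAs. PTTG2, PTTG3P, SKP2, CDC25A, KRT18, SGO1, PLK1, CDCA5, MAD2L1BP, MAD2L2, PDS5B, TK1, KIF18A and KIF22 were named after their values were seen. Of the genes listed, ANAPC1, 8 ubiquitin-conjugating enzymes and 4 proteasome subunits had no probe set naming 1 gene, and FBXO43 was under the filter. Alternatives were averaging a gene's probe sets, dropping those with an _s_at, _x_at or _a_at suffix, called shared below, a pseudocount of 16, scaling by quantiles or by the median, omitting the signal filter or raising it to the 75th percentile, and counting at 1.5-fold or 3-fold. Leaving out _x_at probe sets only, and counting probe sets that name a member with its pseudogenes, were added after seeing the data.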

Additional observations from a re-analysis of the deposited data

How the results depend on the processing

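The 225 values of single APC/C genes under an alternative all moved by less than 1.5-fold from those given, and none turned its direction past 2-fold. Many of them could not move. A changed filter only drops or admits genes, and averaging changes nothing for a gene with 1 probe set. Leaving out or adding probe sets moves a value only where the brightest one changes. Values near 0 changed sign in 5 cases: FZR1 with SETD8 siRNA 2 (0.01, quantile normalization), CDC27 with either siRNA (-0.39 and -0.10, averaged probe sets), the FBXO5 difference of SETD8 siRNA 2 minus SETD8 siRNA 1 (0.07, averaged probe sets) and ANAPC5 with SETD8 siRNA 1 (0.09, without shared probe sets). Of 238 counts, shares and medians under an alternative, 226 stayed within 1.5 times (medians within 1.5-fold). With shared probe sets left out, CDC20, UBE2S, FBXO5 and PTTG1 had none left, so that 1 of 5 genes (UBE2C) was lower with both siRNAs and the medians became -0.24 with SETD8 siRNA 1 and -0.083 with SETD8 siRNA 2. A 1.5-fold threshold gave 3 lower cohesin genes, and 7.37% lower and 4.59% higher over all genes. With a 3-fold threshold, 0 deubiquitinases and phosphatases were lower, and 1.55% of all genes were lower and 0.463% higher. No filter gave 2.33% higher over all genes, with 19775 genes compared. The filter at the 75th percentile left 0 lower SCF genes, because CCNF, the only one counted, fell under it. Without _x_at probe sets 1 cohesin gene was lower. This was PDS5B, the only cohesin gene whose brightest probe set had that suffix. Counted with its pseudogenes, ANAPC1 had -0.35 and -0.72. PTTG1 rests on its _x_at probe set alone. No paired analysis was possible because each siRNA has 1 array.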
